A study of Bubalus bubalis with 12 samples.

Results

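The genes described here build the cytoskeleton of the corpus luteum (CL): the non-muscle actins and the proteins that start, sever, cap and cross-link their filaments, the tropomyosins and myosins that work on them, the tubulins, vimentin and the keratins. They were chosen by gene symbol, namely KRT, TUBA, TUBB, TUBG, TPM, MYH, MYO, MYL, ACTN, ACTR, ARPC, FLN, PFN, CFL, CAPZ and TMSB genes together with ACTB, ACTG1 and VIM, leaving out the smooth muscle genes MYH11 and MYL9. The rule took 86 of the 9155 genes that the platform annotation names singly, covered by 129 probe sets. CFLAR, which encodes the caspase-8 inhibitor cFLIP, entered only because its symbol starts with CFL, so 85 of the 86 are cytoskeleton genes.

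RNA came from whole CL taken from cyclic buffalo cows at day 11 of their cycle. Treated animals received 500 µg of cloprostenol, an analogue of prostaglandin F2α (PGF2α), into the muscle, and the CL was taken after 3 h (n = 2), 6 h (n = 3) or 18 h (n = 3), while the 0 h controls (n = 4) were untreated animals of the same cycle day. Each CL was hybridised to 1 GeneChip Bovine Genome Array, a cattle array, and all values below are log2 values as deposited. Because cattle probes were used on buffalo RNA, levels are compared between arrays for 1 gene and never between genes. A gene was called changed where the limma test had a Benjamini-Hochberg adjusted p under 0.05 over all 24016 probe sets, and each difference is given with its standard error (SE).

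Actin filaments grow from monomers held ready by profilin and thymosin, branch through the Arp2/3 complex, are cut by cofilin and are stabilised by tropomyosin, which also sets the access of myosin. Microtubules are polymers of alpha- and beta-tubulin that start on gamma-tubulin, and vimentin and keratins form the intermediate filaments. In the CL these proteins shape steroidogenic, endothelial, mural and immune cells alike, and PGF2α, which ends the life of the gland, acts through a receptor coupled to calcium signalling.

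The arrays had medians between 7.09 and 7.17. Control replicates 1 and 4 were the most alike of the arrays (r = 0.997 over all probe sets, and 6 probe sets over 2-fold apart), and the pair of 3 h arrays the least alike within a group, where 1306 probe sets were over 2-fold apart. The labels count the controls as 4 animals, and whether replicates 1 and 4 came from separate animals could not be settled from normalized values. The 9 luteal steroidogenic markers averaged 12.28 to 12.68 at 6 h and 11.74 to 12.22 at 18 h, against 12.81 to 13.30 in controls. Of the 9, 3 were lower at 6 h and 7 at 18 h (33.3% and 77.8%, against 7.66% and 8.35% of all genes). The RNA is that of whole tissue, so a lower value cannot separate fewer cells of a type from less RNA per cell. In the same way a higher value, for any gene below, cannot separate a larger share of a cell type from more RNA per cell.

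A limited set of actin filament genes rose after the PGF2α analogue and few cytoskeleton genes fell. At 6 h, 9 of the 86 genes were up regulated (10.5%, against 6.55% of all genes) and 1 was down regulated (1.16%, against 7.66%). At 18 h, 8 were up regulated (9.30%, against 7.55%) and 2 were down regulated (2.33%, against 8.35%). The same 7 genes were higher at both times, namely CFL2, TPM4, TPM2, ARPC1B, ARPC2, ARPC5L and ACTG1. The median difference over the 86 genes was 0.04 at 6 h and 0.09 at 18 h, beside -0.05 and -0.02 over all genes. Rises and falls cancel in such a median. Without regard to sign, the median difference was 0.14 at 6 h and 0.22 at 18 h, beside 0.19 and 0.20 over all genes. By limma, 25 members at 6 h and 31 at 18 h had an unadjusted p under 0.05. The share of all genes with such a p was not counted. In total 73 of the 86 were called at neither time. How many of all genes were called at neither time was not counted, so the 73 do not set the members apart. All 21 members of low signal, defined below with the striated muscle myosins, were among these 73. The moderated F test over the 3 treated times called 10 members (11.6%, against 14.1% of all genes), all of them among the 13 called at 6 h or 18 h. With control replicates 1 and 4 averaged into 1 sample, 5 members were called at 6 h in place of 10. The share of all genes called in that setting was not counted.

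**Figure D1:**
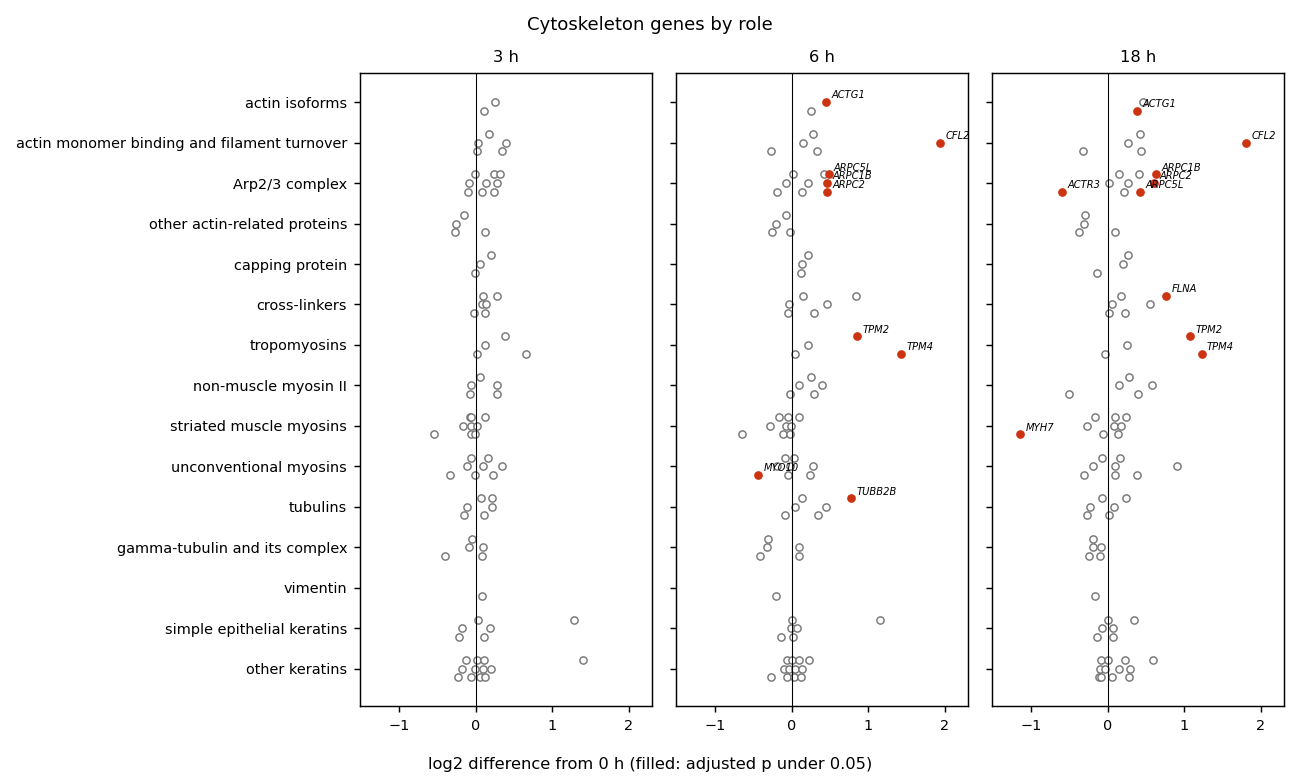
Log2 difference from 0 h (horizontal axis) of the 85 cytoskeleton genes at 3, 6 and 18 h, 1 point per gene, grouped by role; filled points have an adjusted p under 0.05. No point is filled at 3 h, and at 6 h and 18 h the filled points lie mostly among the actin genes, with CFL2 and TPM4 farthest to the right and MYH7 farthest to the left.

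CFL2, the muscle isoform of cofilin, which cuts actin filaments and releases monomers, had the largest increase. Its values were 9.94, 9.83, 9.92 and 10.08 at 0 h, 9.94 and 10.74 at 3 h, 12.31, 11.65 and 11.68 at 6 h, and 12.02, 11.53 and 11.71 at 18 h. Every 6 h and 18 h array lay above every control. At 3 h, 1 array lay among the controls and the other between the controls and the later times. The difference was 1.94 ± 0.21 at 6 h (3.83-fold, adjusted p = 0.000814 by limma) and 1.81 ± 0.21 at 18 h (3.51-fold, adjusted p = 0.000513). CFL2 was also higher at 6 h than at 3 h, by 1.54 ± 0.25 (adjusted p = 0.0353), and at 18 h than at 3 h, by 1.41 ± 0.25 (adjusted p = 0.0150). The averages over smooth and over striated muscle markers, given beside TPM2, also lay above every control in all 6 h and 18 h arrays. For smooth muscle the margin was small, with 9.50 in the lowest 6 h array against 9.49 in the highest control. The average over 7 blood cell markers lay above every control too, at 5.84 to 5.97 at 6 h and 5.90 to 6.05 at 18 h, against 5.71 to 5.83. The calls of CFL2 against 0 h were kept under every alternative. That between 6 h and 3 h was lost without any 1 of 9 arrays (adjusted p up to 0.102). That between 18 h and 3 h was lost without 3 h replicate 1 or 18 h replicate 1 (adjusted p up to 0.0595).

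The other cofilin and the monomer-binding proteins moved less. CFL1, the non-muscle cofilin, read 11.30, 11.27 and 11.06 at 6 h and 11.34, 11.41 and 11.17 at 18 h, against 10.75, 10.94, 10.99 and 10.83 in controls. It differed by 0.33 ± 0.14 at 6 h and 0.43 ± 0.14 at 18 h (adjusted p = 0.147 and 0.0627). Profilin, PFN1, which loads monomers with ATP and feeds them to growing ends, differed by 0.44 ± 0.14 at 18 h (adjusted p = 0.0564) and thymosin, TMSB10, which stores monomers, by 0.26 ± 0.09 (adjusted p = 0.0689). In all of these the 18 h arrays lay above every control, but none was called. PFN1 at 18 h was called under 7 of 10 alternatives and CFL1 under 3 of 10. With both 3 h arrays left out, an alternative chosen after seeing the data, 17 members were called at 18 h, PFN1 and CFL1 among them. The share of all genes called in that setting was not counted, so the 17 do not set the members apart.

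Of the non-muscle actins themselves, ACTG1 was called and ACTB was not. ACTG1 values were 14.38, 14.51, 14.36 and 14.35 at 0 h, 14.30 and 14.72 at 3 h, 14.94, 14.82 and 14.78 at 6 h, and 14.85, 14.74 and 14.76 at 18 h. The groups at 6 h and 18 h lay wholly above the controls, by 0.45 ± 0.11 (adjusted p = 0.0215) and 0.38 ± 0.11 (adjusted p = 0.0357). ACTB differed by 0.25 ± 0.17 at 6 h and 0.46 ± 0.17 at 18 h (adjusted p = 0.419 and 0.117). Its 18 h arrays also lay above every control, at 13.21 to 13.43 against 12.66 to 13.18. Whether ACTB and ACTG1 changed differently was not tested. A second ACTG1 probe set was not called (-0.12 at 6 h and 0.21 at 18 h). The ACTG1 call was lost without any 1 of 4 arrays at 6 h (adjusted p up to 0.0910) or any 1 of 7 arrays at 18 h (up to 0.135).

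**Figure D2:**
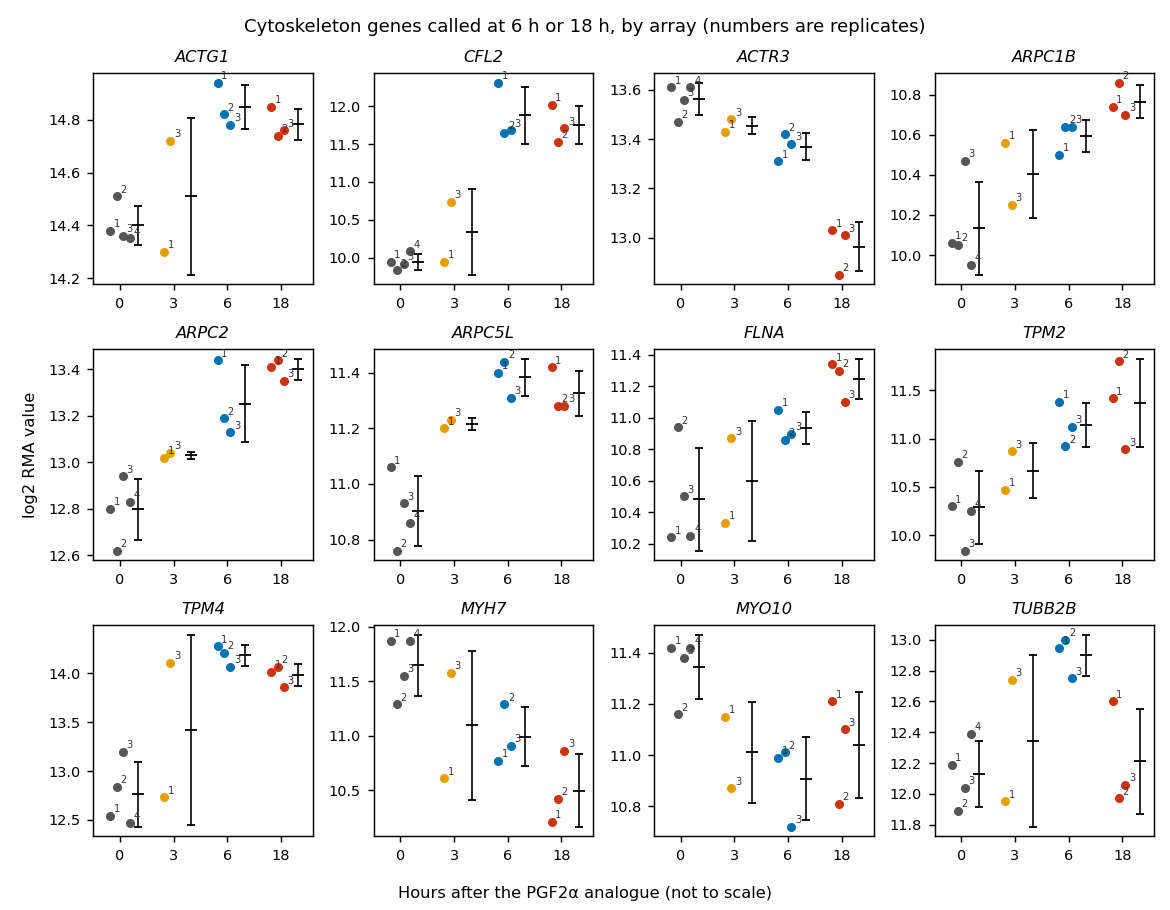
Log2 values (vertical axis, a scale of its own in each panel) of the 12 cytoskeleton genes called at 6 h or 18 h, by hours after the PGF2α analogue; points are arrays with their replicate number, and the bar beside them is the group mean with its SD. CFL2, TPM4, ARPC1B, ARPC2 and ARPC5L are higher in every 6 h and 18 h array than in every control, ACTR3 is lower than every control in these arrays and lowest at 18 h, and the 3 h arrays lie far apart for TPM4 and MYH7.

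The Arp2/3 complex, which starts a new filament as a branch on the side of an old one, was covered by 9 subunit genes, and its subunits did not move together. ARPC2, ARPC1B and ARPC5L were up regulated at both 6 h and 18 h, whereas ACTR3, the Arp3 subunit that takes the place of an actin monomer at the branch point, was down regulated at 18 h. ACTR3 values were 13.61, 13.47, 13.56 and 13.61 at 0 h, 13.43 and 13.48 at 3 h, 13.31, 13.42 and 13.38 at 6 h, and 13.03, 12.85 and 13.01 at 18 h. The 6 h arrays lay below every control and the 18 h arrays below every other array. The difference was -0.19 at 6 h, which was not called, -0.60 ± 0.08 at 18 h against 0 h (1.52-fold lower, adjusted p = 0.00117), -0.49 ± 0.10 at 18 h against 3 h (adjusted p = 0.0242) and -0.41 ± 0.09 at 18 h against 6 h, which was not called (adjusted p = 0.0766). The call against 0 h held under every alternative, and that against 3 h was lost without 3 h replicate 3, 18 h replicate 1 or 18 h replicate 2 (adjusted p up to 0.0646).

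ARPC2, a core subunit that contacts the mother filament, read 12.80, 12.62, 12.94 and 12.83 at 0 h, 13.02 and 13.04 at 3 h, 13.44, 13.19 and 13.13 at 6 h, and 13.41, 13.44 and 13.35 at 18 h. All treated arrays lay above all controls, and the difference was 0.46 ± 0.10 at 6 h (adjusted p = 0.0171) and 0.60 ± 0.10 at 18 h (1.52-fold, adjusted p = 0.0035). ARPC5L, an isoform of the smallest subunit, also had all treated arrays above the controls, with 0.48 ± 0.09 at 6 h (adjusted p = 0.00868) and 0.42 ± 0.09 at 18 h (adjusted p = 0.0118). Its paralogue ARPC5 differed by 0.01 ± 0.10 and 0.14 ± 0.10 (adjusted p = 0.963 and 0.398). Without 6 h replicate 1 the 6 h call of ARPC2 was lost (adjusted p = 0.0781), and without 18 h replicate 1 the 18 h call of ARPC5L (adjusted p = 0.0609).

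ARPC1B, the isoform of its subunit that predominates in blood-derived cells, rose by 0.46 ± 0.13 at 6 h (adjusted p = 0.0408) and by 0.63 ± 0.13 at 18 h (adjusted p = 0.00869), while its paralogue ARPC1A differed by 0.13 ± 0.11 and 0.21 ± 0.11 (adjusted p = 0.522 and 0.240). ARPC1B values were 10.06, 10.05, 10.47 and 9.95 at 0 h, 10.56 and 10.25 at 3 h, 10.50, 10.64 and 10.64 at 6 h, and 10.74, 10.86 and 10.70 at 18 h, so control replicate 3 nearly reached the 6 h arrays. The 6 macrophage markers averaged 8.72 to 8.96 at 6 h and 9.05 to 9.66 at 18 h, against 8.16 to 9.27 in controls, where control replicate 3 held the highest value. Of these 6 markers CD14 was called higher at 6 h, and CD14 and CD68 at 18 h. These shares were 16.7% and 33.3%, against 6.55% and 7.55% of all genes. The part of macrophages in the ARPC1B values was not tested. The 6 h call was lost without any 1 of 9 arrays (adjusted p up to 0.134), and the 18 h call was kept without any 1 array.

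The other subunits, ACTR2 (0.21 at 6 h and 0.27 at 18 h), ARPC3 (0.41 and 0.41), ARPC4 (-0.07 and 0.01) and those named above, were not called, with the ARPC3 arrays spread over 8.50 to 9.50 within the controls alone. CAPZA1, CAPZA2 and CAPZB, which cap the fast-growing ends, were not called at any time (-0.15 to 0.26 at 18 h). Nor were ACTR1A and ACTR10 of dynactin or ACTR6 and ACTR8, which belong to nuclear chromatin remodelling complexes (-0.38 to 0.10 at 18 h).

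**Figure D3:**
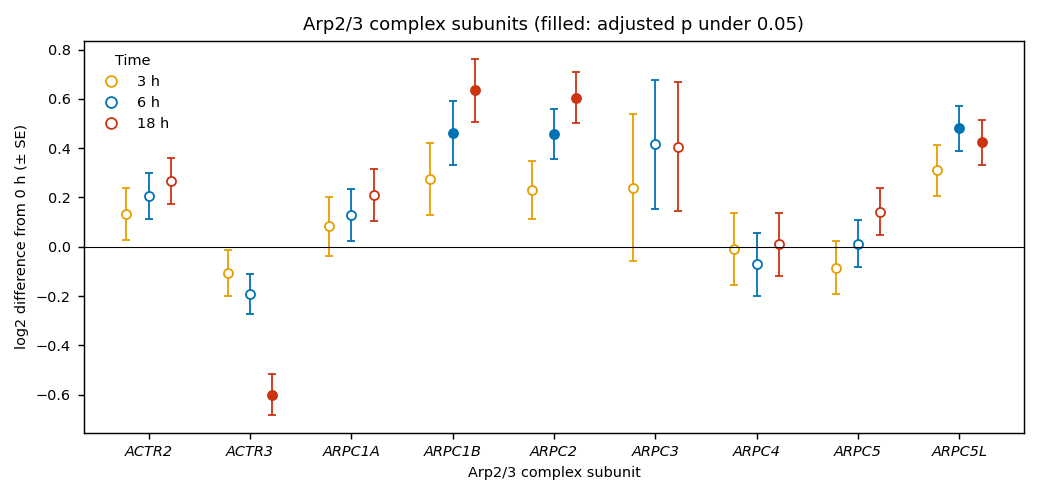
Log2 difference from 0 h with its SE (vertical axis) of the 9 Arp2/3 subunit genes at 3, 6 and 18 h; filled points have an adjusted p under 0.05. ARPC1B, ARPC2 and ARPC5L are filled above 0 at 6 h and 18 h, and ACTR3 is filled below 0 at 18 h only, with -0.19 at 6 h.

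Among the tropomyosins, which lie along actin filaments and can shield them from cofilin, TPM4 and TPM2 rose and TPM1 and TPM3 were not called. TPM4, a short non-muscle form, had values of 12.54, 12.84, 13.20 and 12.47 at 0 h, 12.73 and 14.11 at 3 h, 14.28, 14.21 and 14.07 at 6 h, and 14.02, 14.07 and 13.86 at 18 h. One 3 h array was within the control range and the other at the level of the 6 h group, the widest gap between the 3 h arrays of any member (1.37). The difference was 1.43 ± 0.27 at 6 h (2.69-fold, adjusted p = 0.00828) and 1.23 ± 0.27 at 18 h (2.34-fold, adjusted p = 0.0129). The 18 h call was lost without 18 h replicate 1 (adjusted p = 0.0526), and the 6 h call was kept under every alternative.

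TPM2, the beta-tropomyosin of smooth and skeletal muscle, read 10.30, 10.76, 9.84 and 10.25 at 0 h, 10.47 and 10.87 at 3 h, 11.38, 10.92 and 11.12 at 6 h, and 11.42, 11.80 and 10.89 at 18 h. The 6 h and 18 h arrays lay above all controls, by 0.85 ± 0.24 (1.80-fold, adjusted p = 0.0420) and 1.08 ± 0.24 (2.11-fold, adjusted p = 0.0133), and a dimmer second probe set rose by 1.82 and 1.75 (adjusted p = 0.00332 and 0.00241). The 6 h call of the brighter probe set was lost without any 1 of 7 arrays (adjusted p up to 0.158), and the 18 h call without 18 h replicate 1 or 2 (up to 0.0584). TPM1 differed by 0.21 ± 0.19 at 6 h and -0.04 ± 0.19 at 18 h, and TPM3 by 0.04 ± 0.11 and 0.25 ± 0.11.

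The 10 smooth muscle and mural markers averaged 9.50 to 9.71 at 6 h and 9.61 to 9.91 at 18 h, against 8.72 to 9.49 in controls. Of these 10, TAGLN, CNN1 and DES were higher at both times (30%, against 6.55% and 7.55% of all genes). The 7 not called included ACTA2 (0.70 ± 0.28 at 6 h with adjusted p = 0.144, and 0.94 ± 0.28 at 18 h with an adjusted p just over the limit) and MYH11 (-0.61 ± 0.37 and -0.35 ± 0.37). The 7 striated muscle markers measured averaged 7.40 to 7.58 at 6 h and 7.48 to 7.63 at 18 h, against 6.77 to 7.16 in controls. The averages of both treated groups thus lay wholly above the controls here too. The median difference of the 7 was 0.33 at 6 h and 0.25 at 18 h. Of these 7, ACTC1, cardiac actin, was higher at both times (1.91 ± 0.42 and 2.43 ± 0.42) and ACTA1, skeletal actin, at 18 h (1.07 ± 0.30). These shares were 14.3% at 6 h and 28.6% at 18 h, against 6.55% and 7.55% of all genes. TNNT3, TNNC2, TNNI2, CKM and MB were not called. How far mural or striated muscle cells contributed to the TPM2 and CFL2 values was not tested.

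Cross-linkers join filaments into networks and bundles, and FLNA, which ties crossing filaments to each other and to the membrane, was the member called here. FLNA values were 10.24, 10.94, 10.50 and 10.25 at 0 h, 10.33 and 10.87 at 3 h, 11.05, 10.86 and 10.90 at 6 h, and 11.34, 11.30 and 11.10 at 18 h. The 18 h arrays were above all controls (0.77 ± 0.18, 1.70-fold, adjusted p = 0.0166), whereas at 6 h control replicate 2 overlapped the treated arrays (0.46 ± 0.18, adjusted p = 0.129). Its second probe set rose at both times (0.50 and 0.61, adjusted p = 0.0452 and 0.0176). The 18 h call was lost without any 1 of 4 arrays (control replicates 1 and 4, and 18 h replicates 1 and 2, adjusted p up to 0.0721).

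The alpha-actinins ACTN1 and ACTN4, which bundle filaments at adhesions and stress fibres, gave different answers by probe set. The brightest ACTN1 probe set differed by 0.83 ± 0.35 at 6 h (adjusted p = 0.163), with controls spread from 9.82 to 11.17, while both dimmer ones were called higher at 6 h (1.02 and 0.61, adjusted p = 0.0233 and 0.0411). The brightest ACTN4 probe set was flat (-0.04 ± 0.18 at 6 h and 0.06 ± 0.18 at 18 h), while the next in brightness rose by 0.81 and 0.77 (adjusted p = 0.00344 and 0.00264), and another of lower signal by 0.54 and 0.50 (adjusted p = 0.0264 and 0.0316). ACTN2, ACTN3 and FLNC were not called at any time.

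No gene of non-muscle myosin II, which pulls actin filaments past one another, was called, but MYH9 at 18 h lay at the limit. Its heavy chain MYH9 read 6.82, 6.97 and 6.61 at 6 h and 7.38, 6.94 and 6.65 at 18 h, against 6.36, 6.38, 6.43 and 6.48 in controls. The groups did not overlap at either time, and MYH9 differed by 0.39 ± 0.17 and 0.58 ± 0.17 (adjusted p = 0.186 and 0.0516). At 18 h it was called under 7 of 10 alternatives and without any 1 of 3 arrays (adjusted p down to 0.0254). MYH10 differed by 0.29 ± 0.13 and 0.39 ± 0.13 (adjusted p = 0.203 and 0.0777), and its regulatory light chain partner MYL12A by 0.24 ± 0.09 and 0.28 ± 0.09 (adjusted p = 0.118 and 0.0756). The dim light chain gene MYL6B had all 18 h arrays below the controls (-0.51 ± 0.20, adjusted p = 0.132).

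Of the 9 striated muscle myosin genes, 7 were among the 21 members whose mean value fell in the dimmest 40% of probe sets, and MYH7, the slow and cardiac beta-myosin heavy chain, was the 1 called. Its probe set with the highest signal read 11.87, 11.29, 11.55 and 11.87 at 0 h, 10.61 and 11.58 at 3 h, 10.77, 11.29 and 10.91 at 6 h, and 10.21, 10.42 and 10.86 at 18 h. The 18 h arrays lay below all controls (-1.15 ± 0.24, 2.22-fold lower, adjusted p = 0.0108), and the 6 h difference was -0.65 ± 0.24 (adjusted p = 0.113). The 2 other MYH7 probe sets, both dim, differed by -0.20 and 0.26 at 18 h and were not called, nor was the mean over the 3 probe sets (-0.36). The call of the brightest was lost without 18 h replicate 1 (adjusted p = 0.0581).

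MYO10, the motor that carries cargo to the tips of filopodia, was the only member down regulated at 6 h. It read 11.42, 11.16, 11.38 and 11.42 at 0 h, 11.15 and 10.87 at 3 h, 10.99, 11.01 and 10.72 at 6 h, and 11.21, 10.81 and 11.10 at 18 h. The 3 h and 6 h arrays lay below all controls, and the 18 h group overlapped them. The 6 h difference was -0.44 ± 0.13 (1.36-fold lower, adjusted p = 0.0470), and the call was lost without any 1 of 8 arrays (adjusted p up to 0.164). Among the other 7 unconventional myosins none was called. The largest difference of these was that of MYO1F, a myosin of immune cells, at 18 h (0.91 ± 0.29, adjusted p = 0.0673), where control replicate 3 read 7.24 and the other controls 5.88 to 6.26.

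TUBB2B was the 1 tubulin called, at 6 h only among the 3 times. It read 12.19, 11.89, 12.04 and 12.39 at 0 h, 11.95 and 12.74 at 3 h, 12.95, 13.00 and 12.75 at 6 h, and 12.60, 11.97 and 12.06 at 18 h. The 6 h arrays were above all controls and the 18 h arrays overlapped them. The difference was 0.77 ± 0.20 at 6 h (1.70-fold, adjusted p = 0.0336) and 0.08 ± 0.20 at 18 h (adjusted p = 0.860), but the 18 h group was not called different from the 6 h group (-0.69 ± 0.22, adjusted p = 0.223). A second TUBB2B probe set rose by 1.65 at 6 h (adjusted p = 0.005). At 18 h this second probe set differed by 0.70 and was not called (adjusted p = 0.126), so the probe sets did not give the same 18 h level. The 6 h call of the first probe set was lost without any 1 of 6 arrays (adjusted p up to 0.121).

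The bulk tubulins and the microtubule-starting genes gave no call. TUBA1A differed by -0.09 ± 0.20 at 6 h and -0.23 ± 0.20 at 18 h, and TUBB by 0.13 ± 0.22 and 0.24 ± 0.22. Gamma-tubulin, TUBG1, and 4 genes of its ring complex ranged from -0.41 to 0.10 at 6 h and from -0.24 to -0.08 at 18 h. TUBGCP2, at 8.45 to 8.64 in 6 h arrays against 8.70 to 9.17 in controls, came closest (-0.41 ± 0.14, adjusted p = 0.0844).

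Neither VIM nor any keratin was called at 3, 6 or 18 h. VIM, the filament of mesenchymal and endothelial cells, read 13.88, 14.21 and 14.24 at 6 h and 13.98, 14.29 and 14.18 at 18 h, against 14.34, 14.30, 14.27 and 14.37 in controls. The difference was -0.21 ± 0.11 and -0.17 ± 0.11 (adjusted p = 0.287 and 0.407). Of the 18 keratins, 11 were among the dim members. KRT18, a keratin of simple epithelia, was the most variable of the simple keratins after treatment, at 8.77, 9.19, 9.11 and 8.66 at 0 h, 10 and 10.42 at 3 h, 9.78, 11.02 and 9.45 at 6 h, and 9.62, 9.98 and 8.23 at 18 h. All 3 h and 6 h arrays exceeded the controls, by 1.28 ± 0.48 and 1.15 ± 0.42 (adjusted p = 0.416 and 0.106), and the 18 h arrays ran from below to above them. KRT8, with which KRT18 pairs in filaments, differed by 0.06 ± 0.22 at 6 h and -0.08 ± 0.22 at 18 h, and KRT19 by 0.01 ± 0.15 and -0.14 ± 0.15. KRT10, a keratin of maturing epidermis, was already spread in controls, at 7.30, 10.16, 8.77 and 7.50. The 7 surface epithelium markers measured averaged 5.90 to 6.22 at 6 h and 6.12 to 6.27 at 18 h, against 5.66 to 5.90 in controls. At 6 h 0 of the 7 were higher and at 18 h 2 were (28.6%, against 7.55% of all genes). The part of epithelial cells in the keratin values was not tested. KRT18 was called at 6 h when 18 h replicate 3 was left out (adjusted p = 0.0480), and no other alternative called KRT8, KRT18 or KRT19 at 6 h or 18 h.

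**Figure D4:**
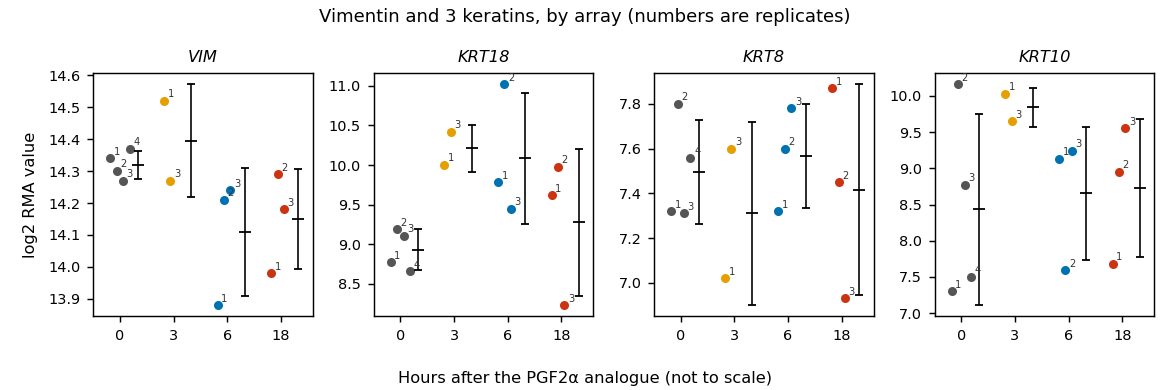
Log2 values (vertical axis, a scale of its own in each panel) of VIM, KRT18, KRT8 and KRT10 by hours after the PGF2α analogue; points are arrays with their replicate number, and the bar beside them is the group mean with its SD. KRT18 is above the controls in every 3 h and 6 h array and spreads from 8.23 to 9.98 at 18 h, KRT10 spreads from 7.30 to 10.16 in controls alone, and VIM spans 13.88 to 14.52 over all arrays.

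CFLAR, the gene matched by its symbol alone, rose by 1.92 ± 0.38 at 6 h (3.79-fold, adjusted p = 0.00967), with 10.79, 10.42 and 10.72 in 6 h arrays against 8.50, 7.95, 9.88 and 8.55 in controls. Control replicate 3 stood nearer to the treated arrays than the other controls did. All 3 of its probe sets rose at 6 h. At 18 h it was not called (0.79 ± 0.38, adjusted p = 0.212). Without it, 8 of 85 cytoskeleton genes were up regulated at 6 h (9.41%).

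At 3 h no member was called, against 0.0109% of all genes higher and 0.0218% lower, and 5 members had an unadjusted p under 0.05 (KRT18, ARPC5L, PFN1, TUBGCP5 and MYO10). The pair of 3 h animals differed from each other. Of the 9 members that were up regulated at 6 h, 7 lay above the highest control in 3 h replicate 3 and 3 did so in 3 h replicate 1, and 8 of the 9 were higher in replicate 3. These 9 were picked as higher than the same controls, which favours values above those controls. The share over all genes was not counted, so these counts describe the 3 h arrays and not a trait of the members. With 3 h replicate 1 left out, which leaves 1 array whose spread is taken to be that of the other groups, TPM4 and MYO9B were called at 3 h. Between treated times, 1 member was higher at 6 h than at 3 h and none lower (1.16% and 0%, against 0.153% and 0.0765%). Likewise 1 was higher and 1 lower at 18 h than at 3 h (1.16% each, against 2.29% and 1.49%). None was called between 18 h and 6 h (against 0.371% higher and 0.273% lower), where 8 had an unadjusted p under 0.05.

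The genes whose products act on these filaments were looked at through lists chosen with earlier results of these data known. Of 94 such genes measured, 15 were up regulated and 9 down regulated at 6 h (16% and 9.57%), and 20 and 6 at 18 h (21.3% and 6.38%). Over all genes these shares were 6.55% and 7.66% at 6 h and 7.55% and 8.35% at 18 h. Proteins that sever, cap or bundle actin were higher for 4 of 21 at 6 h (19.0%, against 6.55% of all genes) and 8 of 21 at 18 h (38.1%, against 7.55%), and lower for none (against 7.66% and 8.35%). Among them were LCP1, the bundling L-plastin of leukocytes (1.78 ± 0.47 at 6 h and 2.61 ± 0.47 at 18 h), CAPG, the gelsolin-like capper abundant in macrophages (1.01 ± 0.20 and 2.01 ± 0.20), and DBN1, drebrin, which binds along filaments (0.49 ± 0.13 and 0.99 ± 0.13). Of the 6 macrophage markers, CD14 was higher at both of these times and CD68 at 18 h, and the others were not called. The median difference of the 6 was 0.01 at 6 h and 0.52 at 18 h. The part of macrophages in the values of the severing, capping and bundling list was not tested.

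Genes whose transcription follows the actin monomer pool through SRF, a list that shares TAGLN with the smooth muscle markers, had 5 of 14 members measured. Of these 5, 4 were higher at 6 h and 3 at 18 h (against 6.55% and 7.55% of all genes). SRF itself rose at 6 h (1.41 ± 0.25, adjusted p = 0.00674) and was not called at 18 h (0.27 ± 0.25). Linkers of actin to membrane and adhesions went both ways. MSN, moesin, rose (0.81 ± 0.18 and 0.87 ± 0.18) and EZR, ezrin of the same family, fell (-0.75 ± 0.15 and -0.87 ± 0.15). VCL, vinculin, rose at 6 h (1.64 ± 0.37), and the spectrin SPTBN1 fell at both times (-0.55 ± 0.13 and -0.59 ± 0.13). Of 29 microtubule partners, 1 rose and 4 fell at 6 h (3.45% and 13.8%, against 6.55% and 7.66% of all genes). At 18 h, 3 rose and 1 fell (10.3% and 3.45%, against 7.55% and 8.35%). MAPRE2, a plus-end protein, was higher at both times (1.58 ± 0.22 and 1.46 ± 0.22), and STMN1, stathmin, which holds tubulin dimers, was higher at 18 h (1.56 ± 0.21). Of 12 other intermediate filament genes and their linkers, 2 were higher at 6 h and 3 at 18 h (16.7% and 25.0%, against 6.55% and 7.55%). These were NEFM, a neurofilament (5.16 ± 0.85 and 4.48 ± 0.85), and DES, desmin of muscle, at both times, and JUP, plakoglobin, at 18 h.

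**Figure D5:**
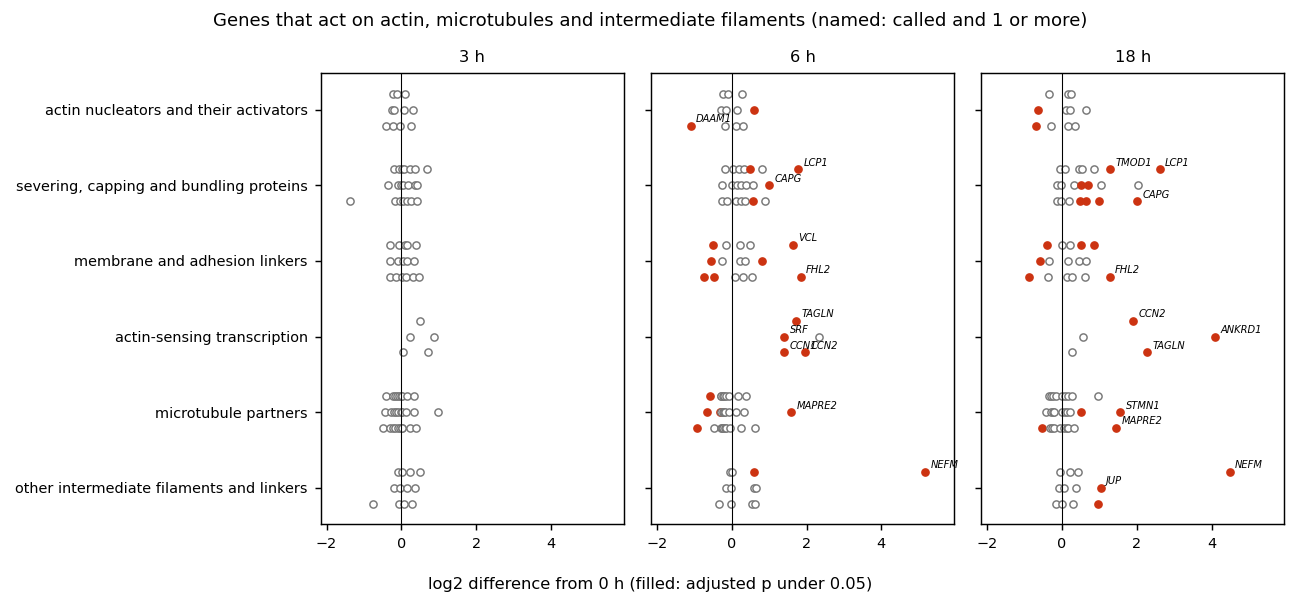
Log2 difference from 0 h (horizontal axis) at 3, 6 and 18 h of 94 genes that act on the cytoskeleton, 1 point per gene, by list; filled points have an adjusted p under 0.05, and called genes with a difference of 1 or more in size are named. Severing, capping and bundling genes have filled points only to the right of 0 at 6 h and 18 h, whereas linkers and microtubule partners have them on both sides.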

How the data were processed

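The authors deposited log2 signals of 12 arrays, made per the labels with robust multichip average (RMA). It removes background, puts arrays on a shared scale and shrinks small differences at low signal. Neither its version nor the set of arrays normalized jointly is given in the sources used here. Of 24128 probe sets, 112 control probe sets were left out. Platform annotation of cattle genes named 13292 probe sets singly, 86 with several symbols and 10638 with none, and the probe set of highest mean stood for each gene. Group means were fitted to all arrays in limma 3.58.1 (R 4.3.3) with contrasts, eBayes at its defaults and two-sided tests, and the fit was tested on simulated data. The text names every member called in any contrast, and a list of others (ACTB, VIM, MYH9, KRT8 and the like), called or not. Of that list TMSB4X, TUBB2A and TUBB6 were not analysed here, nor were promoter sequences. Another list of regulators is not reported here. Members and lists were chosen with earlier results of these data known. Alternatives changed the filter, the normalization, the eBayes settings, the probe set rule, the adjustment, the use of like controls, the replicate number as a term and the arrays included. The number of arrays limits the precision.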

Additional observations from a re-analysis of the deposited data

Results flagged for a closer look

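MYO10 in control replicate 2 read 11.16, apart from the other 3 controls at 11.38 to 11.42 by more than Dixon's critical value for 4 samples. Among the 86 members 3 had such a control, and chance gives about 1 in 20. The difference from controls was itself different between times for a pair of members by limma: that of CFL2 was larger at 6 h than at 3 h by 1.54 (adjusted p = 0.0353) and at 18 h than at 3 h by 1.41 (adjusted p = 0.0150), and that of ACTR3 was lower at 18 h than at 3 h by -0.49 (adjusted p = 0.0242). All 3 rest on a pair of 3 h animals.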

How the results depend on the processing

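The share of all genes called was not counted under any alternative, so the counts below do not set the members apart from other genes. The counts of members called were 10 at 6 h, 10 at 18 h, 1 for 6 h against 3 h, 2 for 18 h against 3 h, 10 by the F test and 0 at 3 h and between 18 h and 6 h. They stayed within 1.5 times without the dimmest 40% of probe sets, with median centring, with quantile normalization repeated, with trend and robust eBayes, with the mean of a gene's probe sets and with adjustment over 1 probe set per gene. With the alike control replicates 1 and 4 averaged into 1 sample, 5 members were called at 6 h, 0 at 6 h against 3 h and 4 by the F test. With only both groups of a contrast in the fit, 0 were called at 6 h or 18 h against 3 h, a setting that the F test does not have. Without both 3 h arrays, chosen after seeing the data, 17 were called at 18 h. With the replicate number as a block, 3 were called at 6 h (CFL2, CFLAR and TPM4), 5 at 18 h (ACTR3, ARPC2, CFL2, MYH7 and TPM2), 0 at either time against 3 h and 2 by the F test (ACTR3 and CFL2). Same-numbered arrays had deviations from their group means that correlated by -0.26 to 0.19, and arrays of unlike number by -0.29 to 0.26. Deviations within so small a group are tied to each other, so this cannot settle whether same-numbered samples share more than a number.

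Leaving out 1 array at a time gave 4 to 12 calls at 6 h, 4 to 17 at 18 h, 0 to 2 at 3 h, 0 to 4 for 6 h against 3 h, 0 to 6 for 18 h against 3 h and 3 to 17 by the F test. The 6 h count was 5 without control replicate 1, 6 without control replicate 4, and 4, 5 and 6 without 6 h replicates 1, 2 and 3. The 18 h count was 4 without 18 h replicate 1 and 17 without either 3 h array. Of 23 called results, 6 kept their call under every alternative (CFL2, CFLAR and TPM4 at 6 h, and CFL2, ACTR3 and ARPC2 at 18 h) and 15 lost it without some single array. Of 36 results of named members that were not called, 13 were called under some alternative.

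Values near 0 changed sign. With the mean of a gene's probe sets ACTN4 was 0.28 at 6 h (adjusted p = 0.0469) and TPM1 0.084 at 18 h. KRT19 at 6 h was -0.047 with the replicate block, and ACTN4 at 18 h was -0.0057 with the like controls averaged. Leaving out 1 array gave -0.13 to 0.15 for ACTN4, -0.088 to 0.10 for KRT19 and -0.043 to 0.19 for KRT8 at 6 h. At 18 h it gave -0.035 to 0.24 for ACTN4, -0.0071 to 0.87 for KRT18, -0.31 to 0.16 for KRT8, -0.29 to 0.095 for TPM1, -0.39 to 0.025 for TUBA1A and -0.11 to 0.20 for TUBB2B. The causes of these changes were not tested.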
